A study of Mus musculus with 12 samples.

Results

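The genes described here are the nuclear genes of oxidative phosphorylation, that is, the subunits of respiratory chain complexes I to IV and of ATP synthase (complex V). They were chosen by name alone: symbols starting with Nduf (other than Ndufaf, the name of assembly factors), Uqcr, Cox4 to Cox8 or Atp5, together with Sdha, Sdhb, Sdhc and Sdhd. The rule took 85 of the 24279 genes in the expression tables. Of these, 81 passed the filter on low counts and were tested, among 15186 tested genes. By name, 38 of the 85 belong to complex I, 4 to complex II, 8 to complex III, 18 to complex IV (14 of them tested) and 17 to complex V. The 4 members that were not tested were Cox7a1, Cox7b2, Cox8b and Cox8c. Polyadenylated RNA came from primary cultures of fibroblasts, the connective tissue cells that grow out of dissociated mouse embryos, here of embryonic day 12.5. There were 4 groups of 3 libraries each. Fortified mutant and fortified wild type cells came from mice fed 10 ppm folic acid and were grown in medium with 3600 ng/mL. Moderate mutant and moderate wild type cells came from mice fed 2 ppm and were grown in medium with 225 ng/mL. Mutant cells were homozygous for a changed allele of Rsg1 (Rsg1L3P/L3P), a gene for a small GTPase-like protein needed to build primary cilia. The diet of the mice and the folic acid of the medium differ in step and cannot be told apart, so folic acid level stands for both. Nothing in the labels ties the 3 libraries of a group to different embryos, so p-values measure the spread between libraries, which may be technical.

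The respiratory chain sits in the inner mitochondrial membrane. Complex I takes electrons from NADH and complex II takes them from succinate. Both pass them to coenzyme Q, complex III passes them on to cytochrome c, and complex IV hands them to oxygen. Complexes I, III and IV pump protons, and ATP synthase uses the return of protons to make ATP. Most subunits are encoded in the nucleus, and a few central ones in the mitochondrial genome. Transcription of the nuclear subunits is known to depend on the factors NRF1, GABP (an ETS-family factor), YY1 and ERR alpha with coactivators of the PGC-1 family.

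Depth ran from 39339190 to 48475963 estimated counts per library. On the first principal component of all tested genes, fortified mutant 2 and 3 and moderate wild type 1 lay apart, at 48.1, 57.5 and 68.0, while the other 9 libraries lay between -68.6 and 4.74. These 3 libraries also had the highest scores of 18 tested skeletal muscle markers and of 12 neuron markers, where a score is the mean log2 CPM (counts per 1000000) relative to the mean of the 12 libraries. Of the fibroblast markers, Vim lay between 2523 and 4886 TPM (transcripts per 1000000) and Col1a1 between 540 and 6067 TPM. Pdgfra and Lum fell to 9.22 and 8.04 TPM in their lowest libraries. The skeletal muscle list summed to between 895 TPM (fortified wild type 2) and 6473 TPM (fortified mutant 2). In fortified mutant 2 the fibroblast list summed to 7764 TPM. In moderate wild type 1 the muscle list summed to 5905 TPM and the fibroblast list to 7442 TPM. The 3 fortified wild type libraries had the highest summed TPM of the fibroblast list, at 12794 to 18335 TPM, against 5963 to 10559 TPM over the other 9 libraries. All 6 mutant libraries and 2 of the 6 wild type libraries (fortified wild type 1 and moderate wild type 1) carried Xist, so the sex of the cells moved with genotype. Rsg1 itself ranged from 1.29 to 3.29 TPM over the 12 libraries, and a changed allele that is still transcribed cannot be checked by its level.

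The members were among the abundant transcripts of these cells. Their summed share of all TPM was 2.88% ± 0.0804 (SD, n = 3) in fortified mutant cells, 2.65% ± 0.221 in fortified wild type cells, 2.07% ± 0.0198 in moderate mutant cells and 2.50% ± 0.171 in moderate wild type cells. The 3 moderate mutant libraries, at 2.09, 2.05 and 2.06%, lay below each of the other 9. By mean over the 12 libraries, Atp5b, the catalytic beta subunit of ATP synthase, was the most abundant member (737 to 1236 TPM). The order changed with the group: in fortified mutant cells Atp5b averaged 928 TPM, below Atp5k at 1069 TPM. By the same mean, Cox6b1, an outer subunit, led complex IV (526 to 1121 TPM). Ndufa4, named for complex I and now placed at complex IV, led complex I by name (408 to 1003 TPM). Uqcrq, a small subunit, led complex III (441 to 929 TPM), and Sdhb, the iron-sulfur subunit, led complex II (156 to 236 TPM). Uqcrh averaged more than Uqcrq in fortified mutant (888 against 597 TPM) and fortified wild type cells (760 against 598 TPM). In moderate mutant cells Cox6a1 averaged more than Cox6b1 (628 against 540 TPM). These ranges overlap for Atp5b, Cox6b1, Ndufa4 and Uqcrq, while Sdhb lay below all of them. Within every library, Atp5b was above Ndufa4 and Uqcrq, and Cox6b1 was above Ndufa4. The order of Atp5b and Cox6b1 changed between libraries, as did that of Uqcrq against Cox6b1 and Ndufa4. At the lower end of the tested members, Ndufa4l2 (complex I by name), Cox4i2 (complex IV) and Atp5s (complex V) did not exceed 19.3, 9.85 and 8.31 TPM. Uqcrfs1, the Rieske iron-sulfur protein, had the lowest mean over the 12 libraries in complex III (110 to 142 TPM). Sdha, the flavoprotein that oxidizes succinate, had the lowest in complex II (70.4 to 131 TPM).

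**Figure D1:**
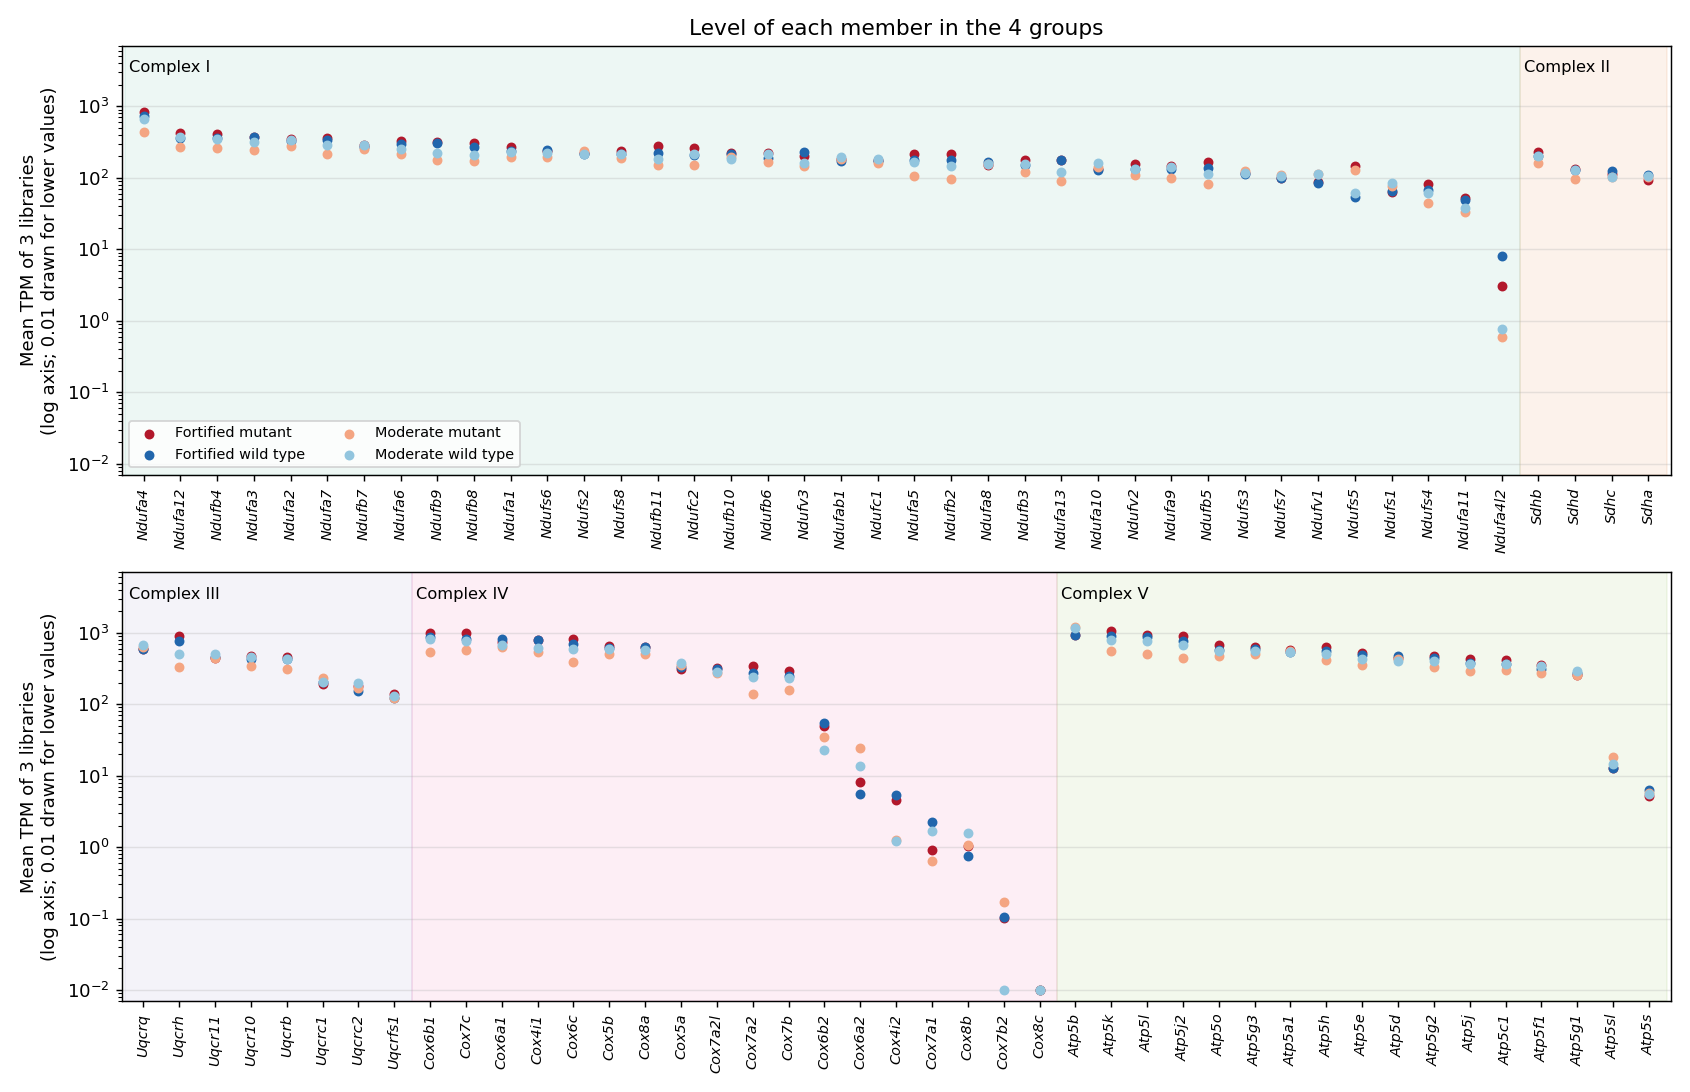
Mean level of each of the 85 members in TPM (log axis, values below 0.01 drawn at 0.01) in the 4 groups of 3 libraries, ordered within each complex by mean level; points are group means, and error is not drawn. The moderate mutant points are often the lowest of the 4, and the isoforms known from muscle, testis or low-oxygen tissue lie far below their broadly expressed relatives.

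Among the 4 comparisons of single groups, members passed the test only between fortified and moderate folic acid in mutant cells. With adjusted p-values from edgeR's quasi-likelihood test over all 15186 genes, 45 of the 81 tested members were higher in fortified than in moderate mutant cells and none was lower. Over all tested genes, 4.19% were called higher and 2.74% lower in this comparison. The median log2 fold change of the tested members was 0.81, against 0.04 over all genes. Of the 81, 64 had every fortified mutant library above every moderate mutant library and 1, Cox6a2, had the reverse, where 19.6% and 18.5% of all genes did so. A fold change above 0 was found for 77 of the 81, against 53% of all genes. At an unadjusted p under 0.05, 58 were higher and none lower, against 13.5% and 12.2% of all genes. On the authors' TPM the count was 38 higher and 1 lower (Ndufv1, the NADH-binding subunit, at -0.36 on the log2 scale), where the median of all genes stood at -0.23, and library totals alone gave 44 higher and none lower. Over all genes the split into 637 higher and 416 lower became 543 and 641 with library totals and 306 and 2508 on log2(TPM + 1). The count of 45 hangs on single libraries: it was 0 without moderate mutant 1, 0 without moderate mutant 2, 6 without moderate mutant 3, and 25, 6 and 33 without fortified mutant 1, 2 and 3, while the median stayed between 0.70 and 0.84. In those fits without moderate mutant 1 or 2 no gene in the table passed, and the smallest adjusted p of a member was 0.0531 and 0.0579. Leaving out the 3 libraries that lay apart kept only fortified mutant 1 in its group, so that fit gives no replicated comparison. In it, 78 of the 81 members were above 0. When each library's trend on transcript length was removed, 6 members were called, and the values after that step stand beside each complex. Neuron markers moved the same way in this comparison, with 11 of 12 above 0 and a median of 0.82, none of them called, and muscle markers had a median of 0.28 with 12 of 18 above 0. Their part in the result was not tested.

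**Figure D2:**
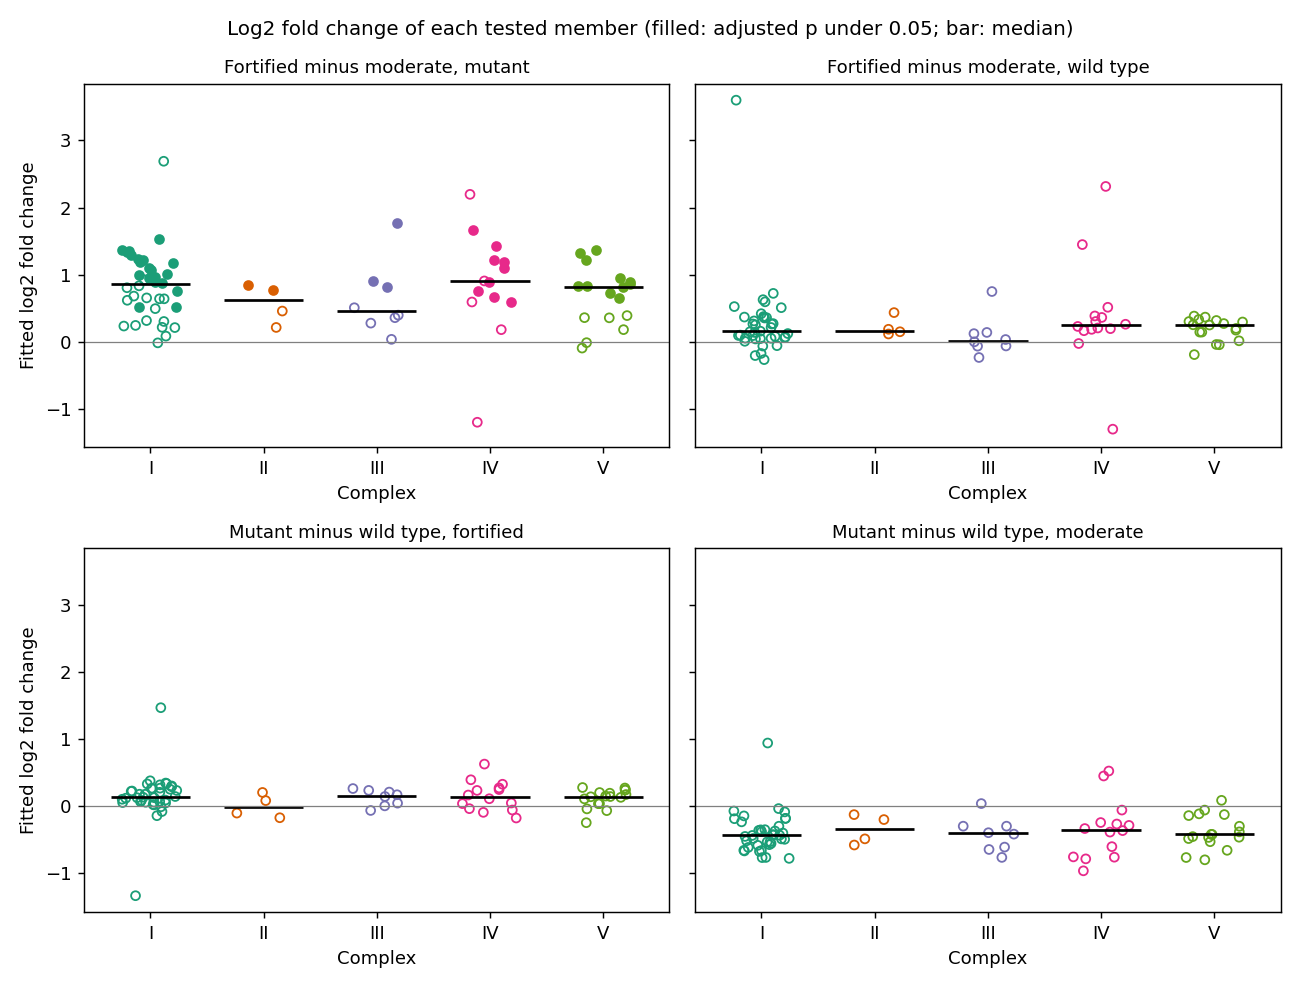
Fitted log2 fold change of each of the 81 tested members, by complex, in the 4 simple comparisons, with filled points for an adjusted p under 0.05 and a bar for the median. Filled points appear in fortified minus moderate mutant cells alone, where 45 members lie above 0 and passed; in moderate cells, mutant minus wild type, 76 of 81 points lie below 0 and none passed.

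Complex I had 20 of 38 members higher in fortified than in moderate mutant cells, with a median log2 fold change of 0.86. After removal of the length trend, 4 were higher and the median was 0.20. Of the 7 nuclear subunits of the catalytic core, which hold the flavin and the iron-sulfur clusters, none passed, and their median was 0.21. Of the 29 accessory subunits, which wrap and stabilize the core, 19 passed, with a median of 0.92. Ndufb5 (ENSMUSG00000027673.12, chr3:32736990-32751566, plus strand, GRCm38 with GENCODE vM21), an accessory subunit of the membrane arm, had 77.9, 85.1 and 74.2 CPM in the 3 fortified mutant libraries, against 28.2, 30.5 and 33.0 CPM in the moderate mutant libraries. All fortified mutant values were thus above all moderate mutant values. The fitted log2 fold change was 1.37 (SE 0.19, edgeR adjusted p = 0.00761). Ndufa13, an accessory subunit also known as GRIM-19, had 129, 115 and 88.4 CPM in fortified mutant cells and 45.7, 40.4 and 46.3 CPM in moderate mutant cells, without overlap (log2 fold change 1.33, SE 0.18, adjusted p = 0.00761). Ndufb2, another membrane-arm subunit, had 31, 41.1 and 35.5 CPM in fortified mutant cells and 12.4, 9.82 and 15 CPM in moderate mutant cells, also without overlap (1.53, SE 0.21, adjusted p = 0.00761). Ndufb9 and Ndufa11, both accessory, were higher by 1.18 (SE 0.16) and 1.01 (SE 0.16) on the log2 scale. Of these 5 genes, Ndufb2 and Ndufb9 were no longer called with the length trend removed, at 0.81 (SE 0.17, adjusted p = 0.0615) and 0.60 (SE 0.15, adjusted p = 0.0860). By contrast, Ndufv1 had 77.3, 75.8 and 61.8 CPM in fortified mutant cells and 69.8, 72.3 and 75.7 CPM in moderate mutant cells, values that overlap (log2 fold change -0.02, SE 0.13, adjusted p = 0.945). The core subunit with the largest fold change, Ndufv2, was at 0.83 (SE 0.25) and did not pass (adjusted p = 0.0683).

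In complex II, Sdhb (ENSMUSG00000009863.14, chr4:140961203-140979193, plus strand) had 117, 126 and 110 CPM in fortified mutant cells, 92.3, 102 and 111 CPM in fortified wild type cells, 63.9, 62.7 and 70.4 CPM in moderate mutant cells and 98.7, 81.7 and 95.2 CPM in moderate wild type cells. The moderate mutant libraries were the 3 lowest of the 12. Its log2 fold change between fortified and moderate mutant cells was 0.84 (SE 0.13, edgeR adjusted p = 0.00977). Sdhd, a membrane anchor that binds coenzyme Q, was higher too, at 0.78 (SE 0.18, adjusted p = 0.0337). Sdhc, the other anchor, stood at 0.46 (SE 0.16, adjusted p = 0.1). Sdha, with 154, 138 and 136 CPM in fortified mutant cells and 125, 119 and 126 CPM in moderate mutant cells, stood at 0.21 (SE 0.15, adjusted p = 0.419), although its libraries did not overlap either. On the TPM scale the sign for Sdha was the other way, at -0.12. With the length trend removed, no member of complex II was called: Sdhb stood at 0.47 (SE 0.12, adjusted p = 0.0836) and Sdhd at 0.49 (SE 0.17, adjusted p = 0.143).

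Complex III had 3 of 8 members higher. Uqcrh (ENSMUSG00000063882.12, chr4:116066965-116075071, minus strand), the acidic hinge protein at the cytochrome c side of the complex, had the smallest p of the members. It had 177, 207 and 189 CPM in fortified mutant cells, 117, 174 and 186 CPM in fortified wild type cells, 59.4, 56.1 and 52.2 CPM in moderate mutant cells and 110, 72.7 and 101 CPM in moderate wild type cells. Within each genotype every fortified library was above every moderate one. Between fortified and moderate mutant cells the log2 fold change was 1.77 (SE 0.20, edgeR adjusted p = 0.00508). The small subunits Uqcrb (0.91, SE 0.19) and Uqcr10 (0.81, SE 0.21) also passed. The 3 larger subunits, Uqcrc1 and Uqcrc2 of the core and the Rieske protein Uqcrfs1, lay between 0.03 and 0.51 and did not pass. Uqcrq and Uqcr11, both small, stood at 0.28 (SE 0.28) and 0.36 (SE 0.26). Only Uqcrh of complex III was called with the length trend removed, and Uqcrb and Uqcr10 stood at 0.23 (SE 0.13) and 0.0779 (SE 0.15).

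Complex IV had 9 of its 14 tested members higher, all of them among the 10 broadly expressed subunits, whose median log2 fold change was 0.99. The exception among these 10 was Cox5a, a matrix-side subunit, at 0.18 (SE 0.14, edgeR adjusted p = 0.456). Cox7a2 (ENSMUSG00000032330.7, chr9:79755361-79759878, minus strand), the widely expressed isoform of a small membrane subunit, had 88.3, 127 and 131 CPM in fortified mutant cells, 64.6, 103 and 94.3 CPM in fortified wild type cells, 36.1, 35.2 and 38.1 CPM in moderate mutant cells and 83.9, 52.7 and 76.5 CPM in moderate wild type cells. Here the moderate mutant libraries were the 3 lowest and closest together. The log2 fold change between fortified and moderate mutant cells was 1.66 (SE 0.23, edgeR adjusted p = 0.00761). Cox6c, a small subunit next to the catalytic core, had 128, 159 and 183 CPM in fortified mutant cells and 57.4, 53.1 and 65.4 CPM in moderate mutant cells (1.42, SE 0.21, adjusted p = 0.00977). Cox7a2l, a supercomplex assembly factor named like a subunit, spread from 111 to 228 CPM in fortified mutant cells and from 107 to 120 CPM in moderate mutant cells, and did not pass (0.59, SE 0.35). Complex IV, with the length trend removed, kept 1 call, Cox7a2, and its median was 0.30, against 0.90 before that step. Cox6c then stood at 0.74 (SE 0.17, adjusted p = 0.0787).

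ATP synthase had 11 of 17 members higher, with a median log2 fold change of 0.81. With the length trend removed, none of the 17 was called and the median was 0.28. The 3 small membrane subunits e, f and g (Atp5k, Atp5j2 and Atp5l), which help ATP synthase form dimers, all passed, with log2 fold changes of 1.32, 1.36 and 1.22. All 4 subunits of the peripheral stalk (Atp5f1, Atp5h, Atp5j and Atp5o) passed as well, between 0.73 and 0.95. In the c ring, which turns with the proton flow, Atp5g2 (0.86, SE 0.14) and Atp5g3 (0.66, SE 0.14) passed, while Atp5g1 (0.36, SE 0.18) did not. In the F1 head and central stalk 2 of 5 passed, Atp5c1 and Atp5e. Atp5k (ENSMUSG00000050856.16, chr5:108433244-108434448, minus strand) had 77.7, 91.4 and 80.6 CPM in fortified mutant cells and 35.9, 33.8 and 30.5 CPM in moderate mutant cells, with no overlap (edgeR adjusted p = 0.00977). Atp5k stood at 0.43 (SE 0.17, adjusted p = 0.182) with the length trend removed. Atp5b had 724, 1032 and 959 CPM in fortified mutant cells and 859, 931 and 953 CPM in moderate mutant cells, which overlap (log2 fold change -0.02, SE 0.18, adjusted p = 0.969). Atp5s and Atp5sl carry Atp5 names without being subunits of the enzyme, and stood at 0.18 (SE 0.42) and -0.10 (SE 0.31).

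The letters before the start of some of these genes are shown so that genes that passed can be set beside genes that did not. The sequences are RefSeq promoter windows of GRCm38.p6 (the assembly also called mm10), from 150 bases before to 30 bases after the annotated start, written 5′ to 3′ on the strand of the gene. Windows were found for 70 of the 85 members. Capitals mark matches, on either strand, to the palindromic NRF1 motif (the capitals of Atp5k), the ETS core CCGGAAGT bound by GABP, and the YY1 motif AAGATGGCG. Uqcrh, Cox7a2, Atp5k and Sdhb passed the comparison in mutant cells, and Sdha and Atp5b did not. They lie at chr4:116075041-116075220 (minus strand), chr9:79759824-79760003 (minus), chr5:108434370-108434549 (minus), chr4:140961121-140961300 (plus), chr13:74350211-74350390 (minus) and chr10:128083157-128083336 (plus).
Uqcrh: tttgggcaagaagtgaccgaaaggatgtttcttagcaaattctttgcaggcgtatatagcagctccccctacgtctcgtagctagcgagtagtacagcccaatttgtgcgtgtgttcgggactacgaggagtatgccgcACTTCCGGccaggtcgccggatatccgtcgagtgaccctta
Cox7a2: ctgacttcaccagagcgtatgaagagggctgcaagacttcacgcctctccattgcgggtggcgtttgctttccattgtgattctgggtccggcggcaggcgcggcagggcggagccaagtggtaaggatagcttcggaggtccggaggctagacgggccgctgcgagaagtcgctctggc
Atp5k: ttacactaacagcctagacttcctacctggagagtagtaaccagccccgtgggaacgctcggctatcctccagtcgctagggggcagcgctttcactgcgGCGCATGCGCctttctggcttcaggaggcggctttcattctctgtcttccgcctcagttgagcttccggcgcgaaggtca
Sdhb: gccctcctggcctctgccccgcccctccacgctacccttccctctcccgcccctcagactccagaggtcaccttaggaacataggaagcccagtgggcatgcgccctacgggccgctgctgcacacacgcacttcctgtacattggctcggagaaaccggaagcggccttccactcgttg
Sdha: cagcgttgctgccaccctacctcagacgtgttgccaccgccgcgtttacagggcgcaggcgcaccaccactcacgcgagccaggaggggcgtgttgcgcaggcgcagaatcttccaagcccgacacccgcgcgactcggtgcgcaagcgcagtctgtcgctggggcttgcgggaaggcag
Atp5b: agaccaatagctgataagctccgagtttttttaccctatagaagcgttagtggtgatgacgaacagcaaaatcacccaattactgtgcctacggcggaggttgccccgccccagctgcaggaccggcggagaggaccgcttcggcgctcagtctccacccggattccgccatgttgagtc
In these 6 windows only Uqcrh held an ETS match and only Atp5k an NRF1 match, and none held the YY1 motif. The windows of Ndufb5 and Ndufa13, which also passed, are not printed and held no match to these motifs. A match is a string of letters, not evidence that a factor binds there, and a window without one says nothing about the factor.

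Counted over windows of 250 bases before to 50 after the start, the NRF1 motif was in 5 of 70 members (7.14%) and in 0.977% of 27025 genes. The YY1 motif was in 7 members (10%) and in 1.49% of all genes, and the ETS core in 5 members (7.14%) and in 4% of all genes. The SP1 core GGGCGG, which is common in promoters, was in 41.4% of members and 35.9% of all genes. The cyclic AMP element TGACGTCA was in 5.71% of members and 1.88% of all genes, and the ERR alpha motif TCAAGGTCA in 2.86% and 0.407%. Both strands were searched, each motif was counted on its own, and matches of different motifs may overlap. Among the tested members with a window, the NRF1 motif was in 4 of 41 that passed in mutant cells (Atp5g2, Atp5k, Cox6a1 and Ndufa11) and in 1 of 26 that did not (Uqcrc1). For the YY1 motif the counts were 3 of 41 and 4 of 26, and for the ETS core 3 of 41 and 2 of 26. These are descriptions of small counts.

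In wild type cells no member passed between fortified and moderate folic acid. Only 4 genes in the whole table did, all higher (0.0263%). At an unadjusted p under 0.05, 13 members were higher and none lower, against 9.67% higher and 9.98% lower over all genes. The median log2 fold change of the members was 0.18, against -0.04 over all genes, and 12 members had all fortified wild type libraries above all moderate wild type ones, against 11% of all genes. The reverse held for 2 members, against 9.67% of all genes, and 67 of 81 were above 0, against 46.8%. Ndufa13, Ndufb9 and Uqcrh had the smallest p. Ndufa13 had 82.7, 110 and 128 CPM in fortified wild type cells and 68.1, 60.8 and 65.5 CPM in moderate wild type cells (log2 fold change 0.72, SE 0.18, edgeR adjusted p = 0.0881). Ndufb9 stood at 0.63 (SE 0.16, adjusted p = 0.0882) and Uqcrh at 0.75 (SE 0.20, adjusted p = 0.0912). All 3 were without overlap between the groups. DESeq2 called 5 members and 1155 genes, and leaving out moderate wild type 1 gave 3 members and 1012 genes, so this count also rests on the tool and on 1 library. Moderate wild type 3 moved the median most: without it the median was 0.36. With the length trend removed, the median was 0.0751, against -0.06 over all genes, and 53 of 81 were above 0. Neuron markers moved the other way from the members here, with 1 of 12 above 0 and a median of -0.87. Muscle markers did so too, with 1 of 18 above 0 and a median of -0.75. Fibroblast markers had a median of 1.44, with 11 of 12 above 0. None of these markers was called, and their part in the members' values was not tested.

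Averaged over both genotypes, 47 of the 81 tested members were higher at fortified folic acid and none was lower, in a comparison where 8.9% of all genes were called higher and 8.86% lower. On the authors' TPM the count was 28 higher and 2 lower (Ndufs1 and Ndufv1, both of the complex I core), with the median of all genes at -0.15. This comparison uses all 12 libraries, and with 1 library left out 33 to 54 members were called. Uqcrh (1.26, SE 0.14), Ndufa13 (1.03, SE 0.13), Ndufb9 (0.90, SE 0.11) and Ndufa11 (0.76, SE 0.11) led, with edgeR adjusted p between 0.00192 and 0.00395. Ndufb8 (0.86, SE 0.13) and Cox4i1, the broadly expressed isoform of a regulatory complex IV subunit (0.70, SE 0.11), were among the 10 with the smallest p. In all, 8 members had each of the 6 fortified libraries above each of the 6 moderate ones, against 2.77% of all genes, and none had the reverse, against 3.6%. At an unadjusted p under 0.05, 60 were higher and none lower, against 17.5% and 16.4%, and 76 of 81 were above 0, against 50%. By parts, the complex I core had 0 of 7 called, and the core and Rieske subunits of complex III 0 of 3. The average takes in the comparison in mutant cells and is not independent of it. The members' median was 0.81 in mutant and 0.18 in wild type cells. Of 12 fibroblast markers, 6 were also called higher in this average, and their part in the members' result was not tested.

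At moderate folic acid, mutant cells did not differ from wild type cells past the threshold in any member or in any gene. The members nevertheless lay mostly on one side: 76 of 81 had a negative log2 fold change, where 56.4% of all genes did, and the median was -0.42, against -0.05 over all genes. At an unadjusted p under 0.05, 43 members were lower and none higher, against 5.14% and 2.73% of all genes, and for 49 members every mutant library lay below every wild type library, against 6.68% of all genes, while no member had the reverse, against 6.34%. Cox7a2, Uqcrh and Sdhb had the smallest p, with log2 fold changes of -0.96 (SE 0.22), -0.76 (SE 0.20) and -0.48 (SE 0.13), and edgeR adjusted p = 0.588 for each. DESeq2 called 42 genes here and no member. With Xist as a covariate the median was -0.25, and without moderate wild type 3 it was -0.29. Neuron markers lay on the same side, with 1 of 12 above 0 and a median of -0.50, and none was called. Moderate wild type 1, the library with the highest neuron score, is among the libraries that lay apart, and without those 3 libraries the members' median was -0.43, with 77 of 81 below 0. The median was -0.15 with the length trend removed. This comparison shares the moderate mutant libraries with the one between folic acid levels in mutant cells, so the 2 are not independent.

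At fortified folic acid no member and no gene passed between mutant and wild type cells either, and DESeq2 called 7 genes and no member. At an unadjusted p under 0.05 no member lay on either side, against 1.26% of genes higher and 2.03% lower. The median of the members was 0.15, and 67 of 81 were above 0, against 51% of all genes. For 7 members every mutant library lay above every wild type library and for none below, against 4.66% and 5.62% of all genes. With the length trend removed, the median was 0.0198 and 46 of 81 were above 0. Neuron and muscle markers were above 0 in 12 of 12 and 18 of 18 cases, with medians of 1.15 and 1.11 and none called, and their part in the members' values was not tested. Ndufb5 had 77.9, 85.1 and 74.2 CPM in fortified mutant cells and 49.4, 66.5 and 72.2 CPM in fortified wild type cells, which do not overlap (log2 fold change 0.33, SE 0.18, edgeR adjusted p = 0.939). Cox7a2 (0.40, SE 0.22) and Ndufb11 (0.38, SE 0.23) came next, with the same adjusted p. Without the 3 libraries that lay apart, the log2 fold change of Cox7a2 was near 0, with fortified mutant 1 as the only mutant library left.

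The interaction, which asks whether the folic acid difference was larger in mutant than in wild type cells, called no member and no gene, and DESeq2 called 5 genes and no member. Its median over the members was 0.59, against 0.04 over all genes, and 42 members were above 0 at an unadjusted p under 0.05, against 4.55% of all genes, and none below, against 2.13%. Of the 81, 74 were above 0, against 53% of all genes. The 3 smallest p were those of Cox7a2 (1.36, SE 0.31), Ndufb5 (1.00, SE 0.26) and Sdhb (0.69, SE 0.18), each with an edgeR adjusted p of 0.708. A larger folic acid difference in mutant cells was therefore not established for any single member.

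The score of each complex per library shows which libraries carry these differences. Over all tested members the scores were 0.42, 0.37 and 0.15 in fortified mutant cells, -0.07, 0.28 and 0.35 in fortified wild type cells, -0.43, -0.46 and -0.38 in moderate mutant cells, and -0.13, -0.24 and 0.13 in moderate wild type cells. The moderate mutant libraries were lowest and lay close together, while moderate wild type and fortified wild type spread more widely. The same held in each complex. In complex II the moderate mutant scores were -0.39, -0.35 and -0.35, and the other 9 libraries lay between -0.07 and 0.28. In complex III moderate wild type 3 had the highest score of the 12, at 0.39, and in complex IV the range within fortified wild type cells was the widest, from -0.10 to 0.53. Fortified mutant 1, 2 and 3 all lay above the moderate libraries of the same genotype in every complex, both the 2 that lay apart on the first component and the 1 that did not.

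**Figure D3:**
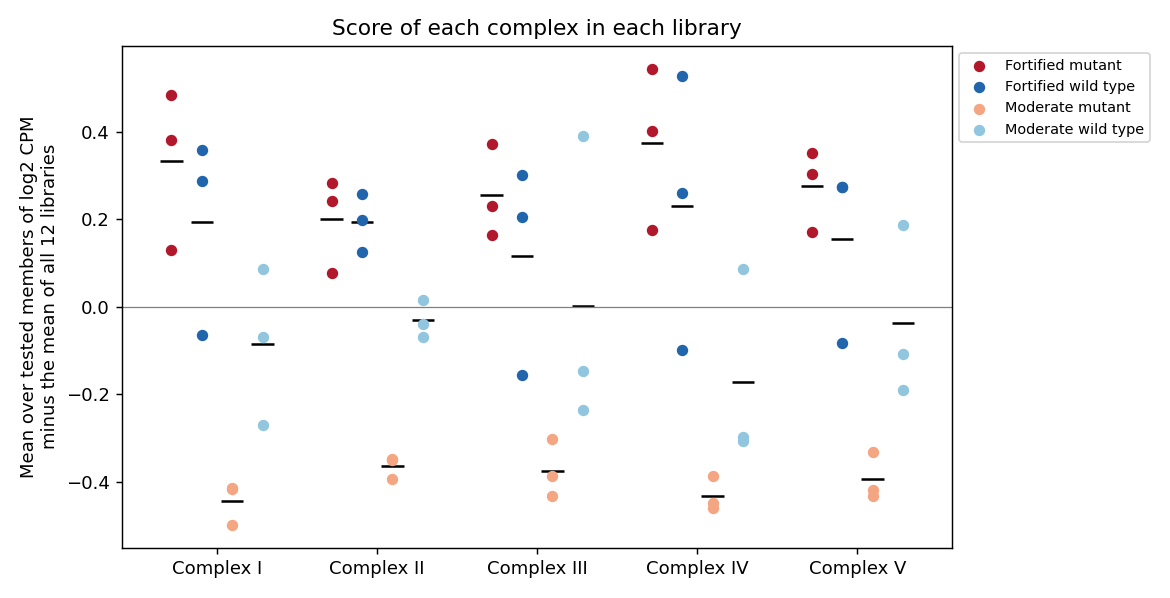
Score of each complex in each of the 12 libraries (points, mean over tested members of log2 CPM minus the gene's mean over all libraries) with the group mean as a bar, by group. The 3 moderate mutant points lie together at the bottom in every complex and below all fortified mutant points, while the wild type groups overlap each other in complexes I, III, IV and V.

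Most members have short transcripts, and the folic acid difference in mutant cells ran with transcript length over the whole table. Of the 81 tested members, 60 fell in the shortest decile of tested genes by effective length (up to 0.369 of the median). Between fortified and moderate mutant cells, the other 1459 genes in that bin stood at a median of 0.57 on the log2 scale and 16% of them were called higher, while the 60 members had a median of 0.87 and 38 called. In the longest decile the median of other genes was -0.30. Across the 81 members Spearman's rho between length and log2 fold change was -0.39, and across all 15186 genes -0.35, a description over genes that share their libraries. When each library's trend on length was removed, 6 members were called higher and none lower, in a fit that called 0.415% of genes higher. The 6 were Cox7a2 (log2 fold change 1.15, SE 0.21), Uqcrh (1.12, SE 0.16), Ndufa13 (1.02, SE 0.16), Ndufa11 (1.02, SE 0.16), Ndufs4 (1.02, SE 0.19) and Ndufb5 (0.97, SE 0.16). The median of the members was then 0.23, against 0.03 over all genes, and 59 of 81 were above 0. Averaged over genotypes, 15 members were called after the same step, against 6.44% of all genes called higher. For mutant against wild type at moderate folic acid the members' median was -0.15 after it, against -0.08 over all genes. Whether the trend on length is technical or not was not tested.

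**Figure D4:**
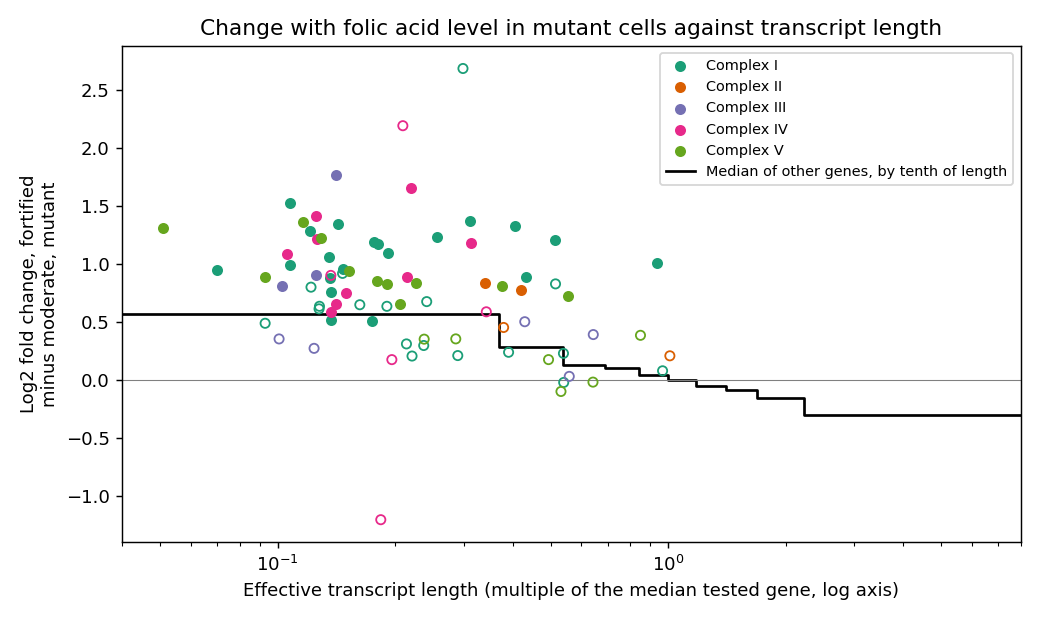
Log2 fold change between fortified and moderate mutant cells (vertical axis) against effective transcript length as a multiple of the median tested gene (horizontal log axis) for the 81 tested members, coloured by complex and filled where the adjusted p was under 0.05; the black line is the median of the other genes in each decile of length. Called members lie mostly left of 0.369, where the line is at 0.57, and most of them lie above it.

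Several subunits have isoforms, whose values are given side by side, with no test of the difference between isoforms. Cox4i1 had 298, 271 and 215 CPM in fortified mutant cells, 223, 254 and 280 CPM in fortified wild type cells, 136, 135 and 151 CPM in moderate mutant cells and 168, 195 and 168 CPM in moderate wild type cells. Cox4i2, the form known from lung and from low oxygen, had 3.12, 0.561 and 0.683 CPM in fortified mutant cells, 0.807, 1.04 and 3.08 CPM in fortified wild type cells, 0.333, 0.313 and 0.300 CPM in moderate mutant cells and 0.368, 0.411 and 0.207 CPM in moderate wild type cells. Every fortified library was above every moderate one for both isoforms, and averaged over genotypes Cox4i2 was higher by 2.26 on the log2 scale (SE 0.52, edgeR adjusted p = 0.0153). Its level is led by fortified mutant 1 and fortified wild type 3. The same 2 libraries were the highest for Ndufa4l2, an isoform known to be induced in low oxygen, with 4.03 and 8.62 CPM, while the other 10 libraries lay between 0.0229 and 1.64 CPM and no comparison passed. Without fortified mutant 1 its log2 fold change between fortified and moderate mutant cells was -1.63, in place of 2.69.

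Cox6a2, the form of Cox6a known from heart and skeletal muscle, had 3.29, 2.59 and 1.07 CPM in fortified mutant cells, 0.938, 0.952 and 2.60 CPM in fortified wild type cells, 4.35, 6.08 and 5.58 CPM in moderate mutant cells and 0.692, 1.21 and 9.20 CPM in moderate wild type cells. It stood at -1.20 (SE 0.82, edgeR adjusted p = 0.393) between fortified and moderate mutant cells, where Cox6a1, the broad form, was higher by 0.59 (SE 0.14, adjusted p = 0.0365). The library with the highest muscle marker score, fortified mutant 2, had 2.59 CPM of Cox6a2, and moderate wild type 3, with a muscle score of -0.43, had the most. Cox6b2, known from testis, passed in the average over genotypes (1.18, SE 0.37, adjusted p = 0.0456), as did Cox6b1 (0.72, SE 0.14). Fortified mutant 1 and fortified wild type 3 again led Cox6b2, at 17.1 and 18.9 CPM. The other fortified libraries lay between 6.54 and 7.55 CPM, below moderate mutant 1 at 8.33 CPM. Of Cox7a1, Cox8b, Cox7b2 and Cox8c, the forms known from muscle or testis that were not tested, the highest value in any library was 3.98 TPM, for Cox8b in moderate wild type 1, and Cox8c was listed at 0 in all 12. The X-linked members Ndufb11 (1.23, SE 0.23) and Cox7b (1.19, SE 0.24) were higher in fortified than in moderate mutant cells, and Ndufa1 (0.80, SE 0.22, adjusted p = 0.053) was not called. All 6 of those libraries carried Xist.

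Ndufs5, an accessory subunit of complex I at chr4:123712710-123718202 (minus strand), stood apart by having high and low libraries within every group. It had 219, 208 and 17.1 TPM in fortified mutant cells, 17.8, 127 and 18.6 TPM in fortified wild type cells, 230, 138 and 16.9 TPM in moderate mutant cells and 145, 12.0 and 26.2 TPM in moderate wild type cells. The range was 19.1-fold. The processed pseudogene BC002163 (chr16:42955631-42955949, plus strand), with which Ndufs5 shares 26.5% of its 31-base runs, ran the other way, from 82.9 to 338 TPM, and was lowest where Ndufs5 was highest. The sum of both was 271 to 364 TPM, a 1.34-fold range. Reads of the pair can thus not be assigned to one gene with confidence, and the level and the fold changes of Ndufs5 are uncertain. Sharing above 10% of 31-base runs was found for 6 further members, namely Ndufa13 (28.3%, with Tssk6), Cox7c (24.5%), Uqcrc2 (18.5%), Cox4i1 (12.4%), Ndufb5 (11.9%) and Atp5o (11.3%). For these, too, reads could be split between genes, and whether counting used strand is not given in the sources used here. No member shared over 50%, and 37 of the 84 members with transcripts in GENCODE vM21 shared none.

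**Figure D5:**
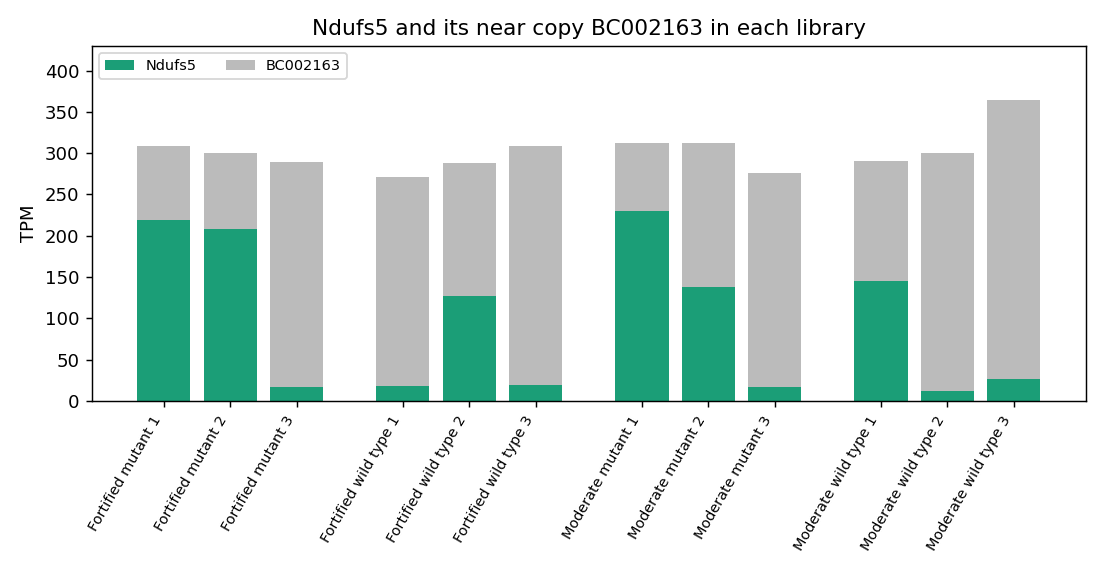
TPM of Ndufs5 (green) and of its near copy BC002163 (grey), stacked, in each of the 12 libraries by group. The green part varies from 12.0 to 230 TPM, with high and low libraries in every group. The grey part fills the column to between 271 and 364 TPM in every library.

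Other genes of oxidative metabolism were read from lists chosen with earlier results of these data known. Their counts are to be read against the 4.19% of all genes called higher and the 2.74% called lower between fortified and moderate mutant cells. No gene in the table was called there without moderate mutant 1 or without moderate mutant 2. Those shares ran with transcript length. Outside the members, 16% of genes in the shortest decile were called higher and 1 gene lower. In the longest decile 0.132% were called higher and 147 genes lower. The lists were not matched for length, and its part in their counts was not tested. Of 8 tested genes that serve these complexes under other names, 5 were higher in fortified than in moderate mutant cells: Usmg5 and 2010107E04Rik, small subunits of ATP synthase (1.42, SE 0.25, and 1.17, SE 0.23), Atpif1, the inhibitor of its reverse reaction (1.33, SE 0.21), Higd1a, a complex IV factor also induced in low oxygen (1.03, SE 0.16), and Cox20, an assembly factor (1.20, SE 0.25). Cyc1, the heme-bearing cytochrome c1 of complex III, stood at -0.04 (SE 0.14, edgeR adjusted p = 0.884). Of 48 assembly factors, 4 were higher (Cox16, Cox19, Cox20 and Surf1) and 1 was lower (Lrpprc, which stabilizes mitochondrial messenger RNAs, at -0.89, SE 0.19), with a median of 0.13. Of 18 electron carrier and coenzyme Q genes, 4 were higher, led by Etfdh and Etfa, which feed electrons from fat oxidation to coenzyme Q (0.72, SE 0.16, and 0.58, SE 0.14), and cytochrome c itself (Cycs) stood at 1.03 (SE 0.29, adjusted p = 0.0543).

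Among 14 mitochondrial carriers and pores 3 were higher, the ADP/ATP carriers Slc25a4 (0.75, SE 0.16) and Slc25a5 (1.28, SE 0.27) and the pyruvate carrier Mpc1 (0.97, SE 0.25), and the median was 0.41. None of 18 genes of the tricarboxylic acid cycle passed in mutant cells, and their median was 0.15. Of 17 nuclear regulators of mitochondrial genes none was higher and 1 was lower, Polrmt, the mitochondrial RNA polymerase (-0.65, SE 0.17, adjusted p = 0.046), with a median of -0.25. Nrf1 stood at -0.39 (SE 0.17, adjusted p = 0.173) in mutant cells and was lower in the average over genotypes (-0.53, SE 0.12, adjusted p = 0.0141). Of 21 hypoxia genes 3 were higher (Higd1a, Ldha and Ankrd37) and 1, Vegfa, was lower (-1.48, SE 0.37), and the median was 0.15. The tricarboxylic acid cycle gene with the smallest p, Idh2, stood at 0.78 (SE 0.28, adjusted p = 0.11).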

How the data were processed

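The authors deposited estimated counts and TPM per gene for 12 libraries, made with salmon per the file headers, and mm10 is named per the submitters' processing notes. The sources used here give neither the salmon version nor the annotation. Per the labels' protocols, RNA was extracted with trizol and chloroform and polyadenylated RNA was made into libraries. Columns were matched to samples by the column number in the labels, together with the genotype and replicate number in the column names, and the letters B and P in those names are not explained there. The deposited expected counts were rounded, filtered with filterByExpr (minimum count 10, total 15), scaled by TMM (0.91 to 1.08) and tested in 1 model of all 12 libraries with edgeR 4.0.16 (quasi-likelihood, R 4.3.3), with Benjamini-Hochberg adjustment over 15186 genes and a threshold of 0.05. Depth was 39339190 to 48475963 counts per library. CPM are TMM-scaled, TPM are the authors' values, and levels of different genes were compared only in TPM. Alternatives used limma 3.58.1 and DESeq2 1.42.0. Named members were the most and least abundant of each complex, at most 10 by smallest p per direction in a comparison with calls and 3 in one without, the isoform groups, complex II and the X-linked members, and at most 3 genes of each list by smallest p in the average over genotypes. Other genes were named after their values were seen. Gene positions come from GENCODE vM21. The script was tested on simulated data. The members and lists were chosen with earlier results of these data known.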

Additional observations from a re-analysis of the deposited data

Results flagged for a closer look

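Atp5a1, Ndufb5, Ndufc2 and Ndufs4 had all 3 mutant libraries below all 3 wild type libraries at moderate folic acid and above them at fortified folic acid. Their log2 differences between the genotype effects (fortified minus moderate) were 0.246, 0.999, 1.02 and 0.962. The edgeR adjusted p of the interaction was 0.742 for Atp5a1 and 0.708 for the other 3, so the difference did not pass its test. Ndufc2, an accessory subunit of complex I, had 77.1, 74.8 and 74.0 CPM in fortified mutant cells against 44.6, 66 and 67.0 CPM in fortified wild type cells, and 34.6, 32.6 and 38.4 CPM in moderate mutant cells against 52.3, 40.3 and 75.7 CPM in moderate wild type cells. Over all 15186 tested genes, 48 (0.316%) had this pattern and 44 had the opposite one.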

How the results depend on the processing

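In mutant cells, fortified against moderate, 45 members were called. The count was 6 with the length trend removed, 22 without the 3 libraries that lay apart (20 of them among the 45), and 0 to 52 with 1 library left out. Other tools, scalings and filters gave 39 to 64. The median of 0.81 was 0.23 with the length trend removed, 0.48 on log2(TPM + 1), 0.46 on log2(TPM + 0.1), and 0.70 to 0.84 with 1 library left out. All genes called numbered 1053, against 559 with the block, 82 after length, 2122 with only the groups compared, 2345 with DESeq2, 5273 with voom, 2814 and 2805 on TPM, and 0 to 2073 with 1 library left out.

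In wild type cells 0 members were called, against 5 with DESeq2, 4 without the 3 libraries and 0 to 3 with 1 left out, and the median of 0.18 was 0.0814 to 0.36 with 1 left out and 0.0751 after length. The 4 genes called there became 2 with library totals, 80 with no filter, 39 with the CPM filter, 65 with the block, 15 with Xist, 63 after length, 0 with only the groups compared, 1155 with DESeq2, 17 with voom, 1 and 13 on TPM, 1298 without the 3 libraries and 1 to 1012 with 1 left out. Averaged over genotypes, the 47 members became 15 after length, 30 on either TPM scale and 33 to 54 with 1 left out. The median of 0.48 became 0.18, 0.25 and 0.43 to 0.55, and the split of 1351 higher and 1345 lower genes became 988 and 1896 with library totals and 587 and 3154 on log2(TPM + 1).

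At moderate folic acid the mutant against wild type median of -0.42 was -0.25 with Xist, -0.15 after length, -0.22 and -0.23 on TPM, and -0.53 to -0.29 with 1 left out. At fortified folic acid the median of 0.15 was 0.0198 after length and 0.03 to 0.23 with 1 left out. The interaction's median of 0.59 was 0.15 after length, 0.34 on TPM and 0.41 to 0.68 with 1 left out. No member was called in these 3 with any library left out, and the causes were not tested.

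Between fortified and moderate mutant cells, signs turned after length for Cox6a1 (-0.0698), Atp5g1 (-0.14), Atp5s (-0.0670) and Uqcrq (-0.41); with voom for Ndufa4l2 (-0.69), Atp5b (0.12) and Atp5s (-0.19); on log2(TPM + 1) for Sdha (-0.12), Atp5s (-0.23) and Uqcrq (-0.0687), and on log2(TPM + 0.1) at -0.13, -0.28 and -0.0688. Left-out libraries turned Atp5b (0.01 to 0.12), Ndufa4l2 (-1.63 to 3.23) and Atp5s (-0.33 to 0.44). Suclg1 averaged over genotypes was -0.0169 and -0.0170 on TPM, and Cox7a2 at fortified folic acid, mutant against wild type, was -0.000337 without the 3 libraries.

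Replicate numbers recur in the 4 groups, and 4 of 18 same-numbered pairs had r over 0.1 (-0.48 to 0.24). With 3 libraries per group, these values cannot show whether same-numbered libraries share more than a number. With the replicate block 39 members were called in mutant cells. Depth limits the rare isoforms, such as Ndufa4l2 with 0.0229 CPM in its lowest library.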
